A study of Gallus gallus with 2 samples.

Results

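The zona pellucida (ZP) genes encode the glycoproteins of the egg coat, which in birds is the inner perivitelline layer around the yolk. They were taken here as every probe set (the group of array probes designed for a transcript) whose single annotated gene symbol starts with ZP and a digit, or is ZPD. The symbol rule found 7 probe sets of 6 genes, ZP1, ZP2, ZP3, ZP4, ZP3L1 and ZP3L2, among the 37693 chicken probe sets. No probe set carried the symbol ZPD. The RefSeq gene table lists ZPD as an older name of UMOD, which has 1 probe set, so UMOD was added as ZPD under its present name and its values are kept apart from the counts by the symbol rule. Together they make 8 probe sets of 7 genes, out of 13008 named genes in all.

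The arrays measured the germinal disc region of maturing oocytes, the spot on the yolk that holds the oocyte nucleus, in laying hens aged 25 weeks. The Bx hens had their bursa of Fabricius, the B cell organ of birds, removed by surgery on day 17 to 18 of incubation, and the series describes them as IgY-deficient. The same growth text, which names the surgery, stands with both samples; the control is told apart by its title and its surgical operation label, whether control hens had a sham operation is not stated, and no strain is given. Each group was 1 pool of 9 germinal discs, taken from yellow follicles F5 to F7 of 3 birds, and was hybridised to 1 Affymetrix Chicken Genome Array. With 1 array per group no test was possible, no p-value is given, and differences between birds were not measured. The aim stated for the series was to find genes upregulated in the oocytes of hens that lack IgY.

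ZP proteins are secreted as precursors with a membrane anchor, are cut free by proprotein convertases, and join into filaments through the ZP domain that gives the family its name. In the hen the main proteins of the inner layer have different sources. ZP3 and ZPD are made by the granulosa cells that surround the oocyte, while ZP1 is made by the liver under estrogen and reaches the follicle in blood. Sperm bind the inner layer and open holes in it, most often over the germinal disc.

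ZP3 was one of the brightest transcripts of the germinal disc region in both pools, and UMOD (ZPD) was also near the top. ZP2 was bright, ZP3L1, ZP3L2 and ZP4 were low but clear of the background, and ZP1 was barely above it in the control pool. On their brightest probe sets ZP3, UMOD and ZP2 differed by at most 1.09-fold between the pools, while ZP3L1, ZP4 and ZP1 each had a signal at least 1.5-fold higher in Bx discs. No ZP gene was at least 1.5-fold lower, and none reached 2-fold. Signals are linear MAS5 intensities as the authors scaled them, and a value counts as above background when it exceeds the 95th percentile of the 746 non-chicken probe sets on the same array, 42.6 for the control and 36.4 for Bx. All 8 probe sets were above this floor on both arrays.

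**Figure D1:**
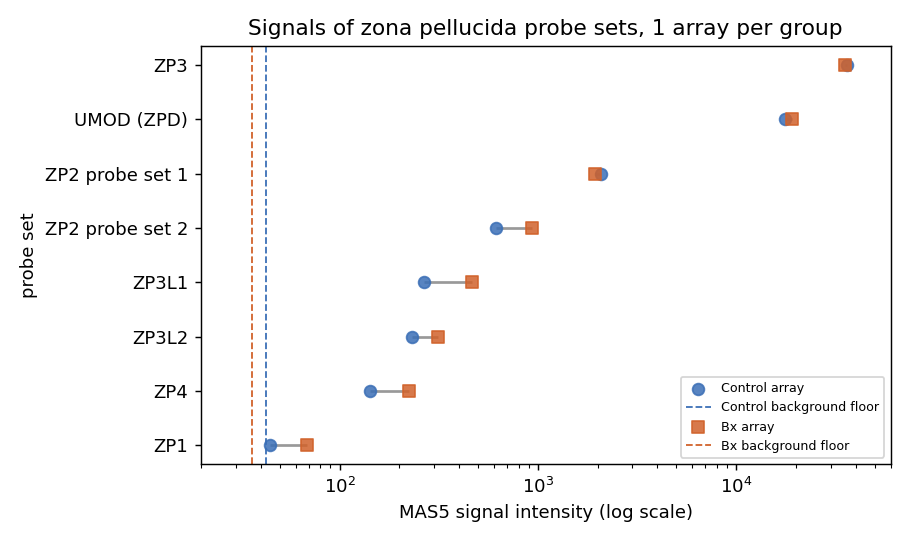
MAS5 signal intensity (log scale) of each zona pellucida probe set on the control array (circles) and the Bx array (squares), 1 array per group, with the background floor of each array as a dashed line. ZP3 and UMOD (ZPD) lie far to the right of the other genes on both arrays, and ZP1 lies next to the floor of 42.6 on the control array.

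ZP3 (NCBI gene 378906), the granulosa-made core protein of the layer, had a control signal of 36001 and a Bx signal of 35348. It ranked 4 of 37693 chicken probe sets on both arrays. The log2 ratio of Bx over control was -0.03, a 1.02-fold difference, whose sign was not kept after loess (0.01) or quantile normalization (0). The brightest chicken probe set on the array reached 39199 and 37553, so ZP3 lay close to the top of the measured range on both. Over the 100 brightest probe sets the SD of the log2 ratio was 0.08, and the widest of them was 1.25-fold apart. Whether these signals were saturated was not tested.

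UMOD, whose older name ZPD is that of a loosely bound protein of the inner layer, had signals of 17698 and 19227 in the control and Bx pools (gene 404754). Its rank was 146 for the control and 109 for Bx. The Bx signal was the higher, by 1.09-fold (log2 ratio 0.12). Among 163 genes within 0.5 log2 units of it in brightness the SD of the log2 ratio was 0.09, and 31 of them were at least as far from equal. UMOD was thus a little further from equal than 1 SD of genes as bright as itself, and far under 1.5-fold.

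ZP2 (gene 427006) was measured by 2 probe sets that did not go the same way. ZP2 protein is the coat protein that in mammals is cut after fertilisation to block further sperm. The brighter probe set had control and Bx signals of 2089 and 1952, a log2 ratio of -0.10, with ranks of 3347 and 3570. The dimmer one had 616 and 929, a log2 ratio of 0.59 or 1.51-fold higher in Bx discs, with ranks of 8352 and 6582. It fell short of 1.5-fold with median centring (0.566), loess (0.566), quantile normalization (0.569) and a pseudocount of 16 (0.580). The mean log2 ratio over both was 0.25 ± 0.49 (SD between 2 probe sets), so the direction of ZP2 depends on which probe set is read. Within 0.5 log2 units of the dimmer probe set in brightness, 1.3% of 1542 other genes were at least 1.5-fold higher in Bx discs. Those genes were read from their brightest probe sets, which the dimmer ZP2 probe set is not, so the comparison is not like for like.

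ZP3L1 and ZP3L2 are annotated as ZP3-like genes. In the RefSeq gene table ZP3L1 is the direct neighbour of ZP3, with no gene listed between them, and ZP3L2 lies on the same chromosome, with 40 listed genes between it and ZP3. ZP3L1 (gene 415305) had control and Bx signals of 266 and 466, with ranks of 12223 and 9730. This was the widest difference of any ZP gene, 1.75-fold higher in Bx discs (log2 ratio 0.81). ZP3L2 (gene 415314) had control and Bx signals of 232 and 313, with ranks of 12979 and 11582. It was 1.35-fold higher in Bx discs (log2 ratio 0.43), short of 1.5-fold. Whether these probe sets also bind mRNA of their relative ZP3 was not tested. The ZP3 signal itself, close to the top of the measured range, differed by 1.02-fold between the pools, and whether it was saturated was not tested.

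ZP4 and ZP1 were the dimmest members. ZP4 (gene 395692), a coat protein related to ZP1, had control and Bx signals of 142 and 224, at ranks of 15630 and 13364. Its Bx signal was 1.58-fold higher (log2 ratio 0.66). ZP1 (gene 395418), the liver-made protein of the layer, had control and Bx signals of 44.8 and 68.2, at ranks of 24247 and 20686. This was 1.52-fold higher in Bx discs (log2 ratio 0.61), on a control signal 1.05 times the background floor of its array. The ZP1 difference, just past 1.5-fold, therefore starts from a signal that is barely distinguishable from the non-chicken probe sets. Bulk RNA cannot tell fewer cells of a type from less RNA per cell for any of these genes.

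The order of the signals was the same on both arrays, from ZP3 through UMOD, ZP2, ZP3L1, ZP3L2 and ZP4 to ZP1, reading the brighter ZP2 probe set. Probe sets differ in how strongly they bind and are not scaled by transcript length, so this is an order of signals and not of mRNA amounts. Probe sets of the same gene differed in log2 signal with an SD of 1.67 (control) and 1.66 (Bx) over 4870 genes, and those of ZP2 lay 3.39-fold apart in the control. On the control array ZP3 and UMOD, ZP3L1 and ZP3L2, ZP3L2 and ZP4, and ZP4 and ZP1 were all closer to each other than the ZP2 probe sets. The gaps between UMOD and ZP2 and between ZP2 and ZP3L1 were wider, at 8.47-fold and 7.86-fold. On the Bx array the ZP2 probe sets lay 2.10-fold apart, and ZP4 and ZP1 lay wider apart than that, at 3.29-fold. There the gap between UMOD and ZP2 was 9.85-fold and that between ZP2 and ZP3L1 4.19-fold.

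By the symbol rule, 3 of 6 ZP genes were at least 1.5-fold higher in Bx discs and 0 were lower, while 4.11% of the 10168 genes above the floor on both arrays were that much higher and 3.63% that much lower. At 2-fold apart the count was 0 of 6 ZP genes, and 1.06% of all genes. Of the 7 ZP probe sets 4 were at least 1.5-fold higher in Bx discs, beside 5.37% of all chicken probe sets above the floor. That count was 3 after loess or quantile normalization, without the dimmer ZP2 probe set, and 2 with median centring or a pseudocount of 16, without ZP1 as well. The median log2 ratio of the 7 ZP probe sets was 0.59, which is the value of the dimmer ZP2 probe set. The range was -0.10 to 0.81, and with UMOD the median was 0.51. With each gene read from its brightest probe set, the median was 0.52 for the 6 ZP genes and 0.43 with UMOD. Over all chicken probe sets above the floor the median was 0.01. UMOD was not past 1.5-fold, which makes the count 3 of 7 genes when it is included.

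These shares depend on brightness, and the 3 ZP genes past 1.5-fold were dim. In the dimmest of 4 equal groups of genes, which holds ZP1 and ZP4, 11.5% were at least 1.5-fold higher in Bx discs and the SD of the log2 ratio was 0.49. In the next group, with ZP3L1 and ZP3L2, the share was 4.17% and the SD 0.31. In the brightest group, with ZP3, UMOD and ZP2, it was 0.118% and the SD 0.15. ZP4 and ZP1 were thus 1.34 and 1.24 SDs of their group from equal, and ZP3L1 was 2.59 SDs away. ZP4 lay at the bright end of its group, so the SD of that group is too wide for it. Among genes within 0.5 log2 units in brightness the SD was 0.41 around ZP4 and 0.49 around ZP1. Within 0.5 log2 units of ZP3L1 in brightness, 3.99% of 1302 genes were at least 1.5-fold higher in Bx discs, and 24 were at least as far from equal as ZP3L1. Around ZP4 the share was 8.62% of 1276 genes and 135 were at least as far from equal, and around ZP1 it was 9.69% of 1022 genes and 236. These counts describe the 2 arrays and include any real difference between the pools.

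**Figure D2:**
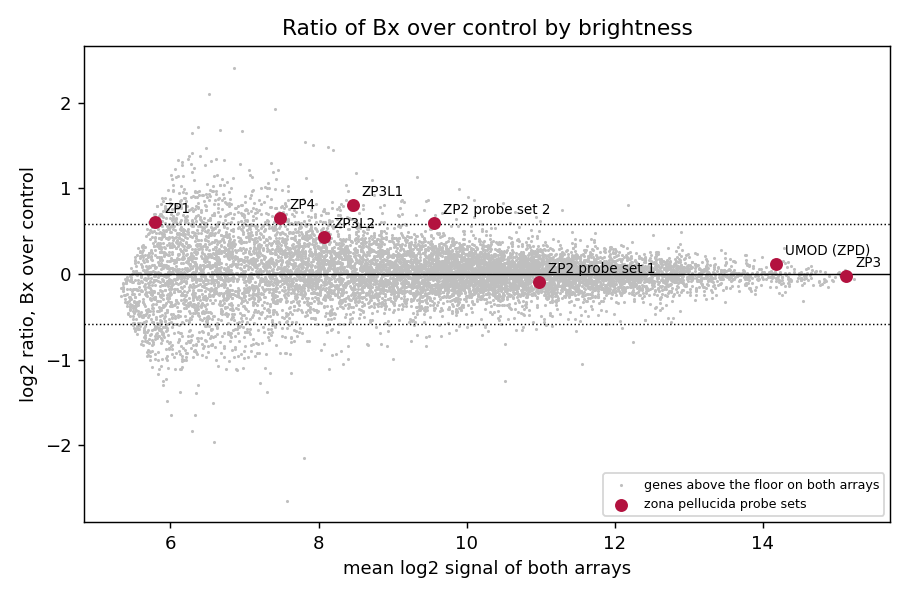
Log2 ratio of Bx over control against the mean log2 signal of both arrays for the 10168 genes above the floor (grey) and the 8 zona pellucida probe sets (red), with dotted lines at 1.5-fold. ZP3 and UMOD sit in the narrow bright end near 0, ZP1 and ZP4 lie within the wide scatter of dim genes, and ZP3L1 at 0.81 lies at its upper edge.

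A pattern over 2 arrays is only a pair of levels, so the genes most like each member were taken as the 3 with the smallest distance in log2 signal on both arrays. Those of ZP3 were RPS20, a ribosomal protein gene, SPARC, which encodes a matrix glycoprotein, and NPC2, a lysosomal cholesterol carrier, at distances of 0.05 to 0.11. Those of UMOD were EIF4EBP1, PSAP and CNN3, and those of ZP2 were PPIL4, EDEM3 and WRAP73. ZP3L1 had RAD51AP1, SKAP2 and MERTK nearest to it, and ZP4 had USP20, METTL4 and TSNARE1. The nearest genes of ZP3L2 were EDARADD, GLUL and HSBP1L1, and those of ZP1 were SLC23A3, FLVCR2 and ZNF831. All 21 lay within 0.126 log2 units of their member.

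Read from their brightest probe sets, the other genes of egg coat biology showed no member past 1.5-fold in either direction among those above the floor on both arrays. Over all genes above the floor, 4.11% were that much higher and 3.63% that much lower. In lists this short, finding none is near those shares and does not set these genes apart. Of 12 other ZP domain proteins 10 were on the array and 6 were above the floor, UMOD among them, with a median log2 ratio of 0.20. ZPLD1, which has a ZP domain but is no coat protein, had control and Bx signals of 1043 and 761 (log2 ratio -0.45), and its 3 probe sets above the floor ranged from -0.45 to 0.75. ENG, an endothelial co-receptor of the same domain family, had 81.7 and 121 (0.56), UMODL1 had 0.42, OIT3 0.28 and TGFBR3 -0.06. TECTA was above the floor in the control at 75.7 and under it in the Bx pool at 28.5. TECTB, CUZD1 and DMBT1 were under the floor on both arrays. ZPAX, an egg coat gene that the symbol rule leaves out and that was looked at after its values were seen, had 63.2 and 50.7 on its brightest probe set, and its other 2 probe sets did not pass the floor on both arrays.

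Of the proprotein convertases, the enzyme family that cuts ZP precursors from the membrane, 6 of 7 on the array were above the floor. Their median log2 ratio was -0.02. Which of them cut ZP precursors in the hen was not tested. FURIN, the type enzyme of the group, had control and Bx signals of 222 and 155 (-0.52). PCSK5 was the brightest, at 2139 and 2201 (0.04), and its 6 probe sets above the floor ranged from -0.45 to 0.28. PCSK2 had a log2 ratio of -0.25, PCSK7 0.15 on the brightest of 3 probe sets that ranged from 0.09 to 0.92, PCSK6 0.33 and MBTPS1 -0.07, and PCSK1 was under the floor on both arrays.

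The regulators of ZP genes were read as transcription regulators and as hormone receptors and ligands. All 5 listed transcription regulators on the array were above the floor, with a median log2 ratio of 0.14. Whether their signal came from the oocyte was not tested. On their brightest probe sets all had the higher signal in the Bx pool, also after median centring, loess and quantile normalization. Of all genes above the floor, 52.4% had the higher signal in the Bx pool. NOBOX is also counted among the oocyte markers below, as are GDF9 and BMP15 from the receptors and ligands. FSHR is also counted among the granulosa markers, so these lists are not separate. NOBOX, an oocyte homeobox factor, had control and Bx signals of 219 and 240, LHX8 417 and 457, and TCF3, the partner of the oocyte factor FIGLA, 700 and 846 with a log2 ratio of 0.27. TCF12 had 0.17 and TAF4B 0.14, both with probe sets that went both ways, and the mean over the 3 of TAF4B was -0.08. Among 7 hormone receptors and oocyte ligands on the array, 6 were above the floor, with a median of 0.03 that was below 0 after median centring, loess or quantile normalization. FSHR, the follicle-stimulating hormone receptor of granulosa cells, had 2820 and 2336 (-0.27) and LHCGR 4477 and 4131 (-0.12). The estrogen receptors ESR1 and ESR2 had log2 ratios of -0.01 and 0.27, BMP15 0.06 and GDF9, an oocyte growth factor, 0.46 at signals of 59.0 and 81.4. PGR, the progesterone receptor, was 43.2 in the control and under the floor in the Bx pool.

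Among genes of sperm binding and coat cleavage 4 of 6 were on the array. CD9, an oocyte membrane protein of gamete fusion in mammals, had control and Bx signals of 6990 and 8511 (0.28), and CD81 10620 and 9931 (-0.10). ASTL, the enzyme that cuts ZP2 in mammals, and its inhibitor FETUB did not pass the floor on both arrays. Proteins of the outer perivitelline layer are added later by the oviduct. Of their genes VMO1 was above the floor in the control at 48.5 and under it in the Bx pool at 7.01. LYZ and OVAL were under the floor on both arrays, and CLU, clusterin, which many tissues make, had 1150 and 1501 (0.38).

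**Figure D3:**
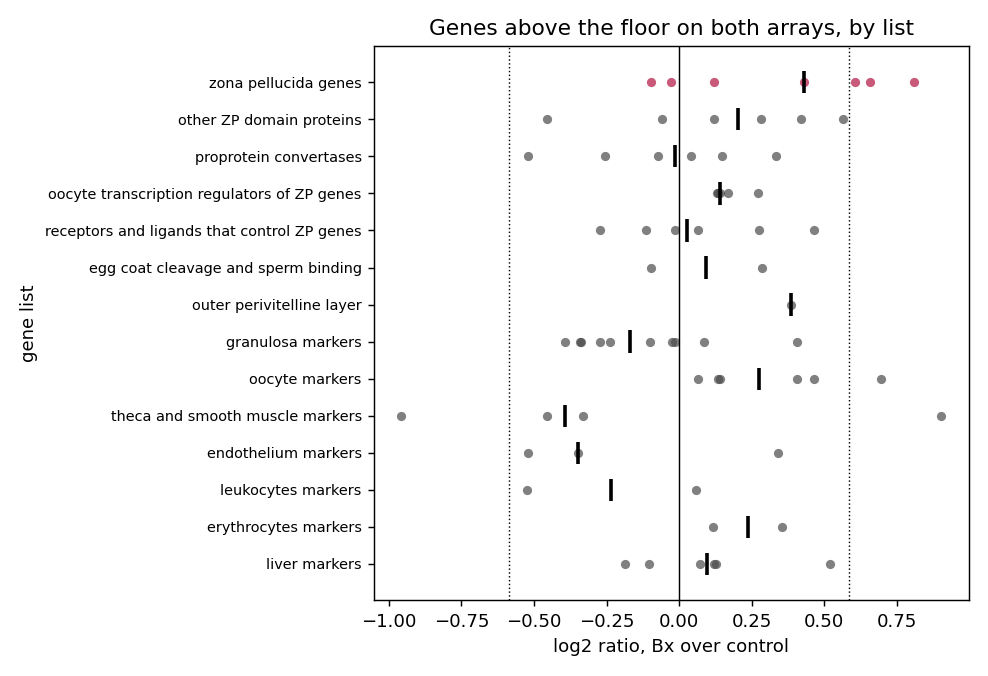
Log2 ratio of Bx over control of each gene above the floor on both arrays, by gene list, with the list median as a black bar and dotted lines at 1.5-fold; UMOD (ZPD) is drawn with the zona pellucida genes and with the other ZP domain proteins. The zona pellucida genes run from -0.10 to 0.81, and 3 of them lie beyond the right dotted line.

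The tissue label is oocytes, and the arrays held signal of both the oocyte and the granulosa layer. All 10 granulosa markers were above the floor, with a summed control signal of 71959 and a summed Bx signal of 66098. Sums here and below take every marker on the array, under the floor or not. On their brightest probe sets 8 of the 10 were lower in the Bx pool (median log2 ratio -0.17), or 7 of the 10 after loess or quantile normalization. NR5A1 (0.09) and KITLG (0.41, at 195 and 259) were higher. The probe sets above the floor went both ways for AMH (-0.34 to 0.10), INHA (-0.02 to 0.003) and FST (-0.01 to 0.005). FOXL2, a granulosa transcription factor, had 20540 and 19164, and INHA, the inhibin alpha chain, 14650 and 14407, with log2 ratios of -0.10 and -0.02. Of the oocyte markers 6 of 7 on the array were above the floor, with sums of 3482 and 3942, and all 6 were higher in the Bx pool (median 0.27). Most of each sum was DAZL, at 2743 and 3027. GDF9 (59.0 and 81.4) and BMP15 (90.3 and 94.4) were low. Over all genes above the floor, 52.4% had the higher signal in the Bx pool. DDX4, the germ cell helicase, was the only oocyte marker past 1.5-fold, at 43.6 and 70.6, close to the floor like ZP1. KIT was under the floor on both arrays. Whether the balance of oocyte and granulosa RNA had a part in the higher signals of the dim ZP genes was not tested.

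Markers of other cell types stood beside these. Of 9 liver markers, 6 were above the floor, with a median log2 ratio of 0.10 over those 6, and all 9 summed to 22837 and 23361. Most of each sum was APOA1, at 13418 and 14658, and TF, at 6138 and 5708. The 3 probe sets of TF above the floor went both ways, with log2 ratios from -0.42 to 0.49. ALB, albumin, was at 2863 and 2518. VTG2, the liver-made yolk precursor, was under the floor on both arrays, as were RBP4 and FGA. The theca and smooth muscle markers summed to 570 and 424 (4 of 6 above the floor, median -0.39). They went both ways: CYP17A1, the androgen-forming enzyme, had 58.7 and 110 (log2 ratio 0.90), PDGFRA had 86.6 and 44.6 (-0.96), and ACTA2, smooth muscle actin, had 72.9 and was under the floor in the Bx pool at 7.02. The endothelial markers summed to 440 and 366 (3 of 5 above the floor, median -0.35). They went both ways too: CDH5 had a log2 ratio of -0.52 and PECAM1 0.34. VWF, whose brightest probe set gave the median, ranged from -0.35 to 0.24 over its probe sets above the floor. The leukocyte markers summed to 3271 and 2385, nearly all of it CD74, at 3182 and 2212 (log2 ratio -0.52). CSF1R had 65.1 and 67.8 (0.06). CD3E went the other way from CD74: it was under the floor in the control at 6.25 and above it in the Bx pool at 72.0. PTPRC and ITGB2 were under the floor on both arrays. The erythrocyte markers summed to 183 and 208, with 2 of 7 on the array. No marker was at 0. Whether RNA of these cells had a part in the ZP signals was not tested.

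**Figure D4:**
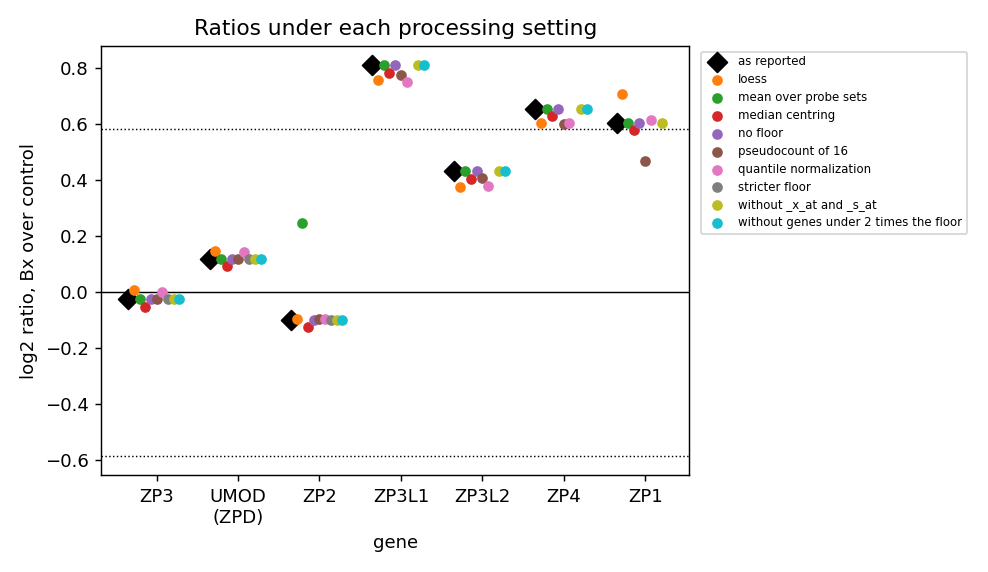
Log2 ratio of Bx over control of each zona pellucida gene as reported (black diamonds) and under each other processing setting that gave it a value (coloured circles), with dotted lines at 1.5-fold. ZP3L1 and ZP4 stay above the upper line in each setting shown for them, some of which could not change their values. ZP1 drops to 0.47 with a pseudocount of 16, and ZP2 moves to 0.25 when its probe sets are averaged.

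Median centring, loess, quantile normalization and a pseudocount of 16 are the settings that could change ZP3L1 and ZP4. Under these, ZP3L1 kept a log2 ratio between 0.75 and 0.78 and ZP4 between 0.60 and 0.63. The others that gave a value could only repeat the reported one, as each gene has a single probe set. ZP1, also with a single probe set, ran from 0.47 to 0.71. It was past 1.5-fold after loess (0.71) and quantile normalization (0.61). It was short of 1.5-fold with median centring (0.58) and the pseudocount (0.47). Without genes under 2 times the floor, a setting chosen after seeing the data, ZP1 was left out and 2 ZP genes remained past 1.5-fold. ZP3 stayed between -0.05 and 0.01 and UMOD between 0.09 and 0.15.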

How the data were processed

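Biotin-labelled cRNA from 100 ng of pooled total RNA was hybridised to 1-colour arrays, per the labels' protocols. The authors deposited a linear MAS5 signal intensity for each probe set, per the submitters' processing notes. Neither the MAS5 version nor its scaling target is given in the sources used here. After trimming 2% at each end, the mean intensity was 500.1 on both arrays, so a change in total mRNA would not show. Detection calls, probe sequences and probe-level files were not used here.

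Log2 signals were computed with no pseudocount (pandas 2.3.3, numpy 2.4.6), without the 96 control probe sets. Genes were named from GEO's platform annotation, and all 7 ZP genes, UMOD included, had the same symbol under their gene ID in the RefSeq table of assembly GRCg7b. Each gene is read from its brightest probe set by mean log2 signal. The genes named are every ZP member, the 3 genes nearest in level to each, and members of 13 gene and marker lists. Members and lists were chosen with earlier results of these data known. Alternatives were median centring, quantile normalization, loess (fraction 0.3, statsmodels 0.14.6), no floor, a floor set by the 75th percentile of chicken probe sets (484 for the control, 498 for Bx), adding 16 before log2, averaging probe sets, dropping _x_at and _s_at probe sets, a 2-fold threshold and, added later, a floor of 2 times the main one. The calculation was tested on simulated data, with changes of 2-fold or more put into genes brighter than ZP4 and ZP1. The simulated scatter was narrower than that of the dim genes here, so the test does not cover differences as small as those reported. The number of arrays limits the precision.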

Additional observations from a re-analysis of the deposited data

How the results depend on the processing

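With the mean over probe sets, ZP2 moved from -0.10 to 0.25, because its second probe set then enters. With the stricter floor, ZP3, ZP2 and UMOD were the only ZP genes left, so the median over ZP probe sets moved from 0.592 to -0.0264 and the number of ZP genes at least 1.5-fold higher in Bx discs from 3 to 0. At 2-fold that number was also 0, and it was 2 with median centring, with a pseudocount of 16 and without genes under 2 times the floor. Over all genes, 418 were at least 1.5-fold higher and 369 lower. These counts were 1412 and 1336 with no floor, 21 and 29 with the stricter floor, 212 and 170 without genes under 2 times the floor, and 65 and 43 at 2-fold, since each setting changes which genes or folds count. ZP3 was above 0 after loess, at 0.01. ZP3L1, ZP3L2, ZP4, ZP1 and UMOD had the higher signal in the Bx pool in each setting that gave them a value. Each of these genes has a single probe set, so only median centring, loess, quantile normalization and the pseudocount could change its value. Leaving out a replicate was not possible with 1 array per group. No paired analysis was possible because each group has 1 array. Signals near the floor of 42.6 and 36.4 limit what ZP1 can show.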
